A study of Mus musculus with 16 samples.

Results

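The genes described here are the enzymes and regulators of sterol and fatty acid synthesis in cultured adult mouse neural stem cells. 30 gene symbols were chosen by their known function. Of these, 28 had at least 1 array probe set listed under that symbol alone, and these 28 were among 12393 genes with such a probe set. The probe set with the highest mean signal stood for each gene. All 28 passed a filter on low signal, which kept 7619 genes. Acat2 and Insig1 had no probe set under their symbol alone and are not analysed here.

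The study measured total RNA on 16 Affymetrix arrays, in 8 groups of 2 arrays described as biological replicates. The cells were Tlx(f/Z;CreER) or Tlx(f/Z), so every group, the controls included, carried the Tlx(f/Z) alleles, and the sources used here do not give the promoter that drives CreER. Each genotype received 4-hydroxytamoxifen (4OH-TM in the labels, 4OHT here) or vehicle, and RNA was collected at 36 h or 60 h. CreER is a Cre recombinase held inactive until 4OHT binds it, and Tlx (Nr2e1) is an orphan nuclear receptor of neural stem cells. The Tlx(f/Z) cells have no Cre and are called no-Cre cultures, so their response to 4OHT is shown apart. No probe set was listed under Nr2e1, so loss of its transcript was not analysed here. The labels do not tie replicates to animals. The p-values therefore cover the variation among these cultures, which may be partly technical. In the fit of the signals as deposited, the spread of each gene came wholly from genes of like signal, not from its own replicates. Those p-values therefore do not measure how far the 2 arrays of a group parted for a single gene.

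Cholesterol is built from acetyl-CoA through mevalonate, isoprenyl diphosphates, squalene and lanosterol, and saturated and unsaturated fatty acids are built from the same precursor by acetyl-CoA carboxylase, fatty acid synthase, elongases and desaturases. Most of these genes are targets of the SREBP transcription factors, which are released from the endoplasmic reticulum when membrane sterol is low and are held there by the INSIG proteins when it is high. Cells of the brain make most of their own sterol, since the blood-brain barrier keeps out circulating cholesterol.

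Array medians ran from 92.2 to 132.6 signal units, a ratio of 1.44, so each comparison was computed on the signals as deposited and again after quantile normalization, which gives all arrays the same distribution of signals. Of 7 neural stem cell markers 6 passed the filter, with median signals of 1732 for Sox2, 2379 for Nes and 7141 for Vim. The oligodendrocyte lineage factors Olig1 and Olig2 had median signals of 7128 and 3541, while the mature oligodendrocyte gene Mog had 6.01 and the astrocyte gene Gfap had 32.8. These lists were mixed: 5 of 11 measured oligodendrocyte lineage genes and 3 of 6 astrocyte genes passed the filter. Among the oligodendrocyte genes Cnp had 945, while Mbp had 25.0 and Mag 8.86. Among the astrocyte genes S100b had 454, Aldh1l1 103 and Gja1 92.5, while Aqp4 had 10.2 and Slc1a2 29.4. The summed microglial markers stayed between 113 and 239 and the summed endothelial and mural markers between 102 and 223. The 4 no-Cre arrays at 36 h stood apart in RNA quality: their ratio of the 5′ to the 3′ beta-actin control probe sets was 0.548 to 0.667, against 0.716 to 0.891 on the other 12 arrays. In bulk RNA, fewer cells of a type and less RNA per cell cannot be told apart.

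**Figure D1:**
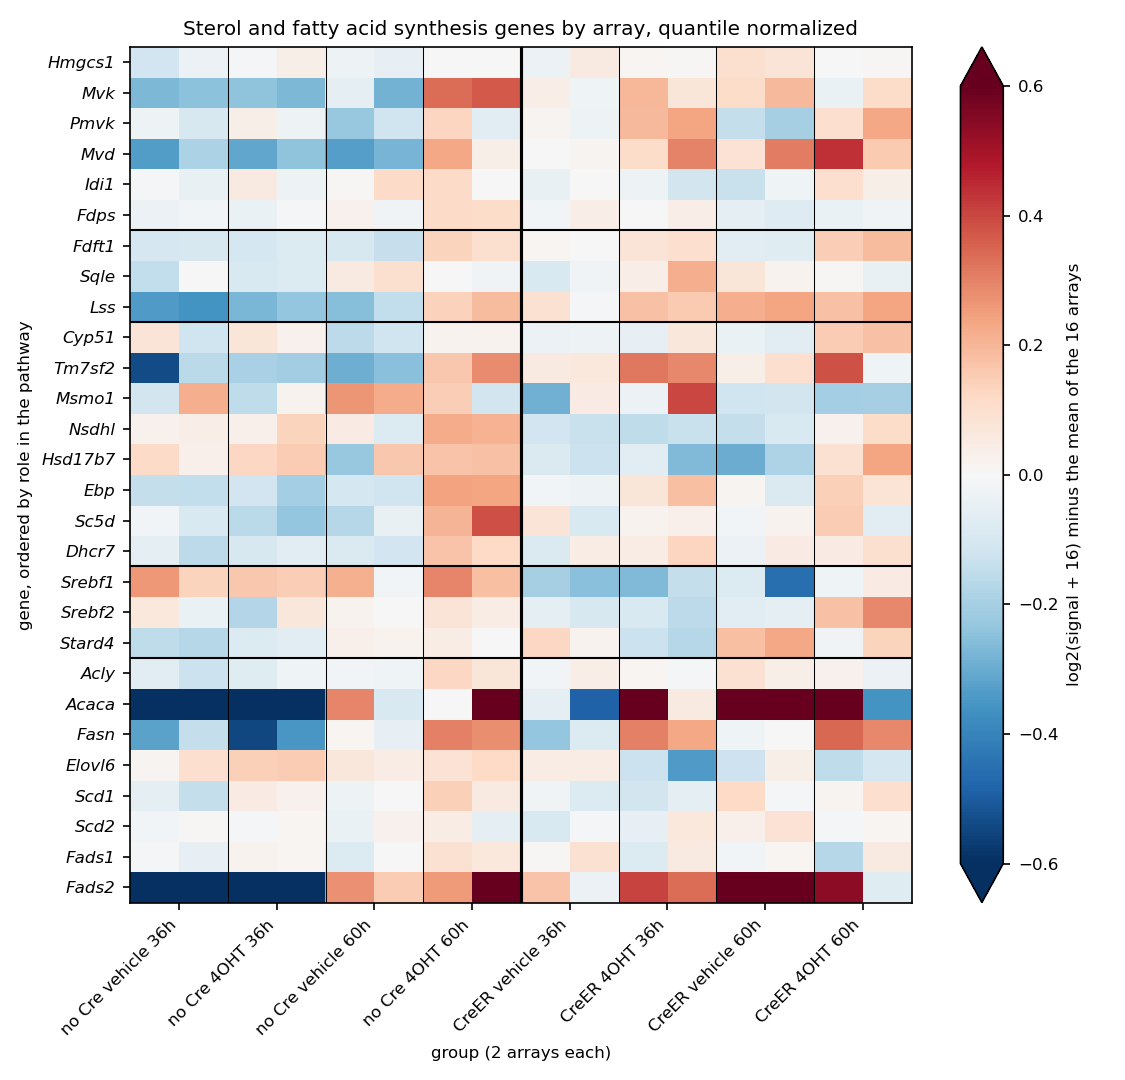
Heat map of the 28 genes (vertical axis, ordered by role) on each of the 16 arrays (horizontal axis, 2 arrays for each group), coloured by quantile-normalized log2(signal + 16) minus that gene's mean over the 16 arrays, with colours ending at 0.6 in either direction. Mvk, Lss, Tm7sf2 and Ebp are redder in the no-Cre 4OHT group at 60 h than in the no-Cre vehicle group, Srebf1 is bluer in most CreER arrays, and Acaca and Fads2 are lowest on the 4 no-Cre arrays at 36 h.

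The comparison of 4OHT with vehicle in no-Cre cultures asked what the drug did where there was no Cre to activate. At 60 h, 9 sterol synthesis genes and Fasn, fatty acid synthase, had higher signals with 4OHT that passed the test after quantile normalization, and none of the 10 passed as deposited. Sqle and Msmo1, which act within the same pathway, had slightly lower mean signals. Mvk, which phosphorylates mevalonate, read 639 and 623 with vehicle and 992 and 850.3 with 4OHT. Both 4OHT arrays lay above both vehicle arrays, and also above the other 12 arrays of the study, which ran from 536 to 811. The change was 0.53 on the log2 scale (SE 0.19), with an unadjusted p of 0.00488 and an adjusted p of 0.559. After quantile normalization the 4 signals were 676 and 574 with vehicle and 889 and 912 with 4OHT, a change of 0.52 (SE 0.08, adjusted p = 0.0029).

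Lss, which closes squalene epoxide into lanosterol, read 814 and 1003 with vehicle and 1271 and 1104 with 4OHT. Its groups did not overlap either, and its change was 0.38 as deposited (SE 0.18, adjusted p = 0.982) and 0.36 after quantile normalization (SE 0.06, adjusted p = 0.00359). Tm7sf2, a sterol C14 reductase, read 839.8 and 993 with vehicle against 1379 and 1251 with 4OHT. Its change was 0.52 as deposited (SE 0.18, adjusted p = 0.559) and 0.49 after quantile normalization (adjusted p = 0.0204). Mvd, which makes isopentenyl diphosphate, read 802 and 957 against 1414 and 1026, and the lower 4OHT array lay close to the higher vehicle array. Its change was 0.45 as deposited (SE 0.18, adjusted p = 0.792) and 0.44 after quantile normalization (SE 0.10, adjusted p = 0.0188).

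As deposited, limma called 0 of the 28 genes at 60 h in no-Cre cultures, where 0.171% of all 7619 genes were called. At an unadjusted p under 0.05, 7 were higher and 0 lower, beside 360 of all 7619 genes in either direction. 26 of the 28 estimates were above 0, beside 4456 of all 7619, with a median of 0.20 against 0.03 over all genes tested. After quantile normalization 10 of 28 genes, or 35.7%, rose and 0 fell, where 7.35% of all genes were called, and the median was 0.18 against 0.02. By role, the genes that rose were 2 of 6 of the mevalonate branch (Mvk, Mvd), 2 of 3 of the squalene and lanosterol steps (Fdft1, Lss), 5 of 8 of the steps from lanosterol to cholesterol (Tm7sf2, Nsdhl, Ebp, Sc5d, Dhcr7), 0 of 3 regulators and 1 of 8 fatty acid genes (Fasn).

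Ebp, the sterol isomerase, changed by 0.35 after quantile normalization (SE 0.06, adjusted p = 0.0044). Sc5d, which adds the C5 double bond, changed by 0.40 (SE 0.08, adjusted p = 0.0118), and Dhcr7, which makes cholesterol from 7-dehydrocholesterol, by 0.25 (SE 0.05, adjusted p = 0.0166). Fdft1, squalene synthase, changed by 0.23 (SE 0.04, adjusted p = 0.00384), and Nsdhl, a sterol C4 decarboxylase, by 0.23 (SE 0.05, adjusted p = 0.014). Fasn changed by 0.31 (SE 0.07, adjusted p = 0.018). Several well-known SREBP targets did not pass the test: the estimates were 0.04 for Hmgcs1, the HMG-CoA synthase of the mevalonate pathway, -0.09 for Sqle, squalene epoxidase, and -0.23 for Msmo1, a C4 methyl oxidase.

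Further probe sets of 3 of these genes also rose in limma's fit over all probe sets after quantile normalization: that of Mvd by 0.45 (adjusted p = 0.0069), that of Mvk by 0.36 (adjusted p = 0.0427) and that of Fdft1 by 0.25 (adjusted p = 0.0315). The other probe sets of Lss (0.44, adjusted p = 0.138, and 0.18, adjusted p = 0.284) and of Sc5d (0.12, adjusted p = 0.788) did not pass. Leaving out each of the 4 arrays compared left 5 or 6 of the 28 genes called after quantile normalization, and Ebp, Fdft1, Lss and Mvk were called each time, while the count over all genes went from 560 to between 96 and 209. The actin 5′ to 3′ ratio was 0.788 and 0.773 with vehicle and 0.850 and 0.891 with 4OHT. With that ratio as a covariate 8 genes were called after quantile normalization, and Mvk changed by 0.54 (adjusted p = 0.00763). Cell markers moved in the same comparison: after quantile normalization 2 of 7 proliferation markers (median -0.20), 2 of 6 neural stem cell markers (median -0.14) and 1 of 2 neuron markers that passed the filter were called lower, and none was called higher. As deposited the summed proliferation markers read 20300 with vehicle and 18680 with 4OHT, and the summed neural stem cell markers 19610 and 18760. The neuronal genes Tubb3, Dcx, Rbfox3 and Snap25 had median signals of 1.73 to 15.6 over all arrays, while Map2 and Syt1 had 1605 and 112. The part of these shifts in the values of the lipid genes was not tested.

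**Figure D2:**
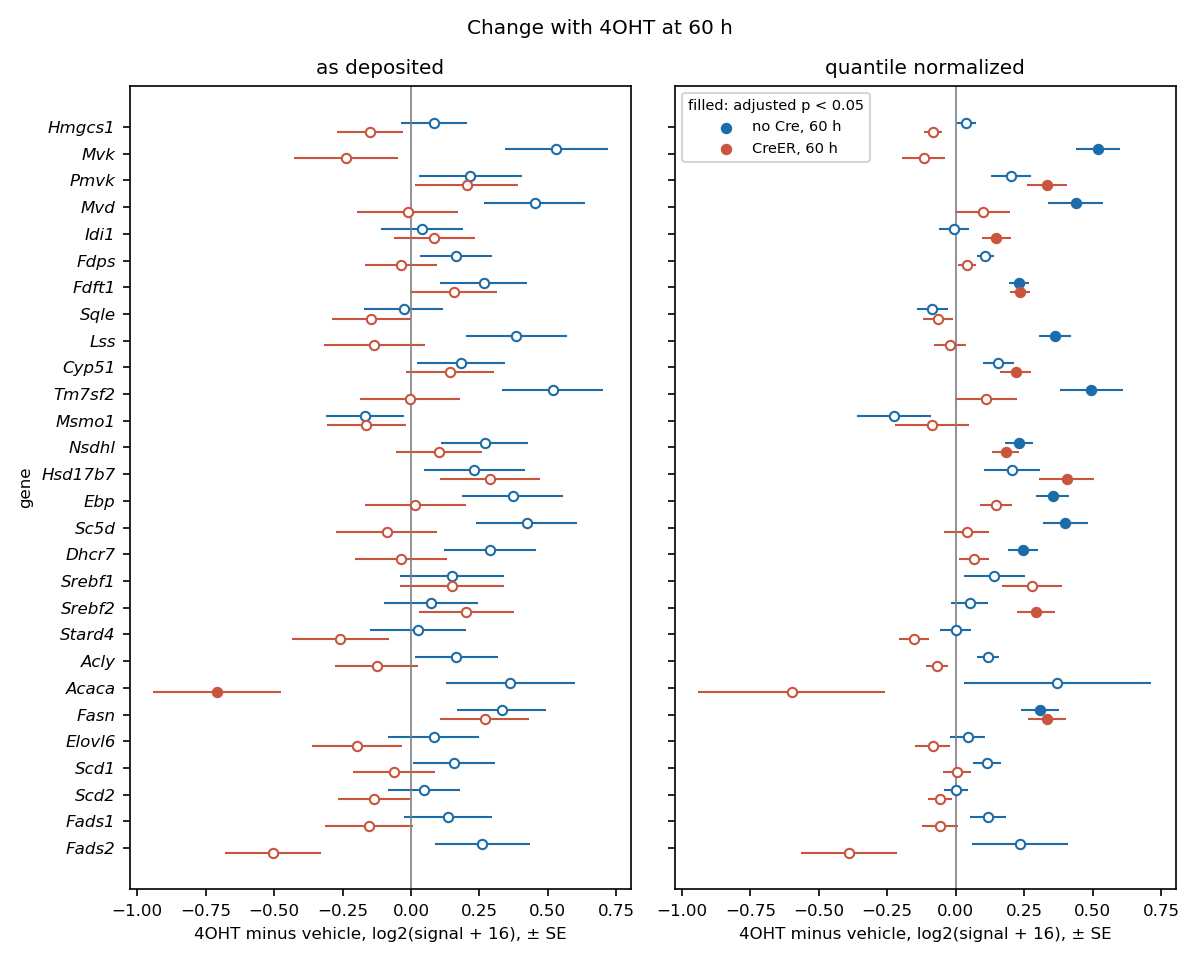
Change with 4OHT at 60 h on the log2(signal + 16) scale (horizontal axis, 4OHT minus vehicle, bars are 1 SE) for each of the 28 genes (vertical axis), in no-Cre (blue) and CreER (red) cultures of 2 arrays per group, from signals as deposited (left) and after quantile normalization (right); filled points have an adjusted p under 0.05. On the right, 10 blue points and 8 red points are filled, against 0 and 1 on the left.

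Promoter sequence was read from RefSeq windows of the GRCm38.p6 assembly, the 250 bases before a gene's start. 23 of the 30 genes matched, 21 of them among the 28 measured, with 28 windows in all. The pentamer CCAAT, bound by NF-Y, a factor that acts with SREBP, was found on either strand in 19 of these 28 windows (18 of 23 genes) and in 33.8% of all 32851 windows of that length, and the GC box GGGCGG in 21 of 28 windows (19 of 23 genes) and 32.7% of all. The sterol response element TCACNCCAC was found in 1 of 28 windows, that of Hmgcs1, and in 1.05% of all, and the E box CACGTG in 4 of 28 and 6.02% of all. A match is a run of letters and no evidence of binding. The windows of Mvk and Lss, which rose with 4OHT in no-Cre cultures after quantile normalization, are shown with that of Hmgcs1, which was not called. They lie at chr5:114444019-114444268 for Mvk, chr10:76531355-76531604 for Lss and chr13:119690101-119690350 for Hmgcs1, all on the plus strand, and capitals mark TCACNCCAC and CCAAT on either strand, the latter reading ATTGG on the minus strand.
Hmgcs1: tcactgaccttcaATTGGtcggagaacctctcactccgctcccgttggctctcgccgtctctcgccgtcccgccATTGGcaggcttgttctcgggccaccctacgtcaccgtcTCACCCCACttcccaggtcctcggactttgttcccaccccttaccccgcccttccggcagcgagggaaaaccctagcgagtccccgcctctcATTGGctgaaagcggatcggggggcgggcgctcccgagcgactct
Mvk: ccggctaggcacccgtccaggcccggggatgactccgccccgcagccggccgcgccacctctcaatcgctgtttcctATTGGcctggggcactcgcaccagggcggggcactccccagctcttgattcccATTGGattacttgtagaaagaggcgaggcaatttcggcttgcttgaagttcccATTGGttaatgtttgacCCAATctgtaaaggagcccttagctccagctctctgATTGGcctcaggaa
Lss: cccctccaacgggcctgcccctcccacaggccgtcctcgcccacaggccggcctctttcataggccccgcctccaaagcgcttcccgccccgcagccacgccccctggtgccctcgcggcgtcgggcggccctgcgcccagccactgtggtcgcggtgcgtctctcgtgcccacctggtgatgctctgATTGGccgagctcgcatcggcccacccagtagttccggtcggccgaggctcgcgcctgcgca
Mvk held 5 CCAAT matches, at 173, 120, 67, 50 and 14 bases before the start, and Lss held 1, at 62 bases before it. Hmgcs1 held 3, at 237, 176 and 45 bases before the start, and its sterol response element at 137.

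At 36 h in no-Cre cultures, limma called 0 of the 28 genes as deposited and 0 after quantile normalization, where 0.0394% and 0% of all genes were called. At an unadjusted p under 0.05 as deposited, 2 genes were lower, beside 319 of all 7619 genes in either direction. Fads2, the delta-6 desaturase, read 981 and 1234 with vehicle and 755 and 929.6 with 4OHT (log2 change -0.39, SE 0.17, adjusted p = 0.834). Fasn read 2358 and 2705 against 1977 and 2003 (log2 change -0.34, SE 0.16, adjusted p = 0.834). In both genes each 4OHT array lay below each vehicle array. Msmo1 came next and also showed no overlap, at 4969 and 6200 against 4563 and 4648 (log2 change -0.27, adjusted p = 0.834). After quantile normalization 2 genes were higher and 1 lower at an unadjusted p under 0.05, beside 495 of all 7618 genes. Averaged over the times, limma called 0 of 28 as deposited (0.0656% of all genes), with 1 higher and 1 lower at an unadjusted p under 0.05, beside 224 of 7619 genes. It called Mvk and Lss after quantile normalization (0.814% of all genes), with changes of 0.26 and 0.23. The change of the response between 36 h and 60 h was not tested in no-Cre cultures.

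The comparison of 4OHT with vehicle in CreER cultures asked what followed when 4OHT was given where Cre could be activated. It also holds any effect of the drug itself, which cannot be told apart from that of Cre in these cultures alone. Averaged over the times, Fasn was the 1 gene of 28 called as deposited, where 12.4% of all genes were called. It read 2057, 2621, 2746 and 2250 with vehicle (mean 2419 ± 320, SD, n = 4) and 3070, 3173, 2770 and 3246 with 4OHT (mean 3065 ± 209, SD, n = 4). All 4 arrays with 4OHT lay above all 4 with vehicle, and the change was 0.35 (SE 0.11, adjusted p = 0.0269). Fasn was no longer called without a filter on low signals, without the mean-variance trend or with the 8 CreER arrays alone. It was also not called without the first vehicle array at 36 h (change 0.26), the second vehicle array at 60 h (0.28), either 4OHT array at 36 h (0.36 and 0.33) or the second 4OHT array at 60 h (0.29).

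After quantile normalization 5 genes rose and 2 fell, 25% of the 28, where 38.8% of all genes were called. Fasn changed by 0.38 (SE 0.05, adjusted p = 3.02e-05), Pmvk, phosphomevalonate kinase, by 0.28 (SE 0.05, adjusted p = 0.000671) and Fdft1 by 0.16 (SE 0.03, adjusted p = 0.000254). Ebp and Cyp51, the lanosterol demethylase, also rose, by 0.15 and 0.13. The 2 that fell were Stard4, which carries cholesterol between membranes (-0.19, SE 0.04, adjusted p = 0.00168), and Elovl6, which elongates palmitate (-0.18, SE 0.05, adjusted p = 0.00501). As deposited the adjusted p was 0.15 for Stard4 and 0.142 for Elovl6.

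Over the same comparison, 7 of 7 proliferation markers fell as deposited, with a median change of -0.73. Their summed signal was 18180 in CreER vehicle cultures and 11910 in CreER 4OHT cultures at 60 h, and the part of this shift in the values of the lipid genes was not tested.

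At 36 h in CreER cultures limma called 0 of 28 as deposited, where 2.61% of all genes were called. At an unadjusted p under 0.05, 3 were higher (Acaca, Fasn and Msmo1), beside 963 of all 7619 genes in either direction. Acaca, acetyl-CoA carboxylase, read 68.7 and 52.8 with vehicle and 131 and 81.9 with 4OHT, without overlap (change 0.65, adjusted p = 0.122). Msmo1 read 3652 and 5278 against 4599 and 6657, with overlap (change 0.33, adjusted p = 0.26). After quantile normalization 3 rose and 2 fell (21.4% of all genes): Fasn by 0.42, Pmvk by 0.22 and Sqle by 0.19 upwards, with Elovl6 at -0.28 and Stard4 at -0.22. At 60 h the 1 gene called as deposited was Acaca, now lower, where 7.0% of all genes were called. Acaca read 158 and 149 with vehicle and 125 and 60.2 with 4OHT, low signals that did not overlap. Its change was -0.71 (SE 0.23, adjusted p = 0.0392), and without the second 4OHT array it was -0.27 and no longer called. Nor was it called without either vehicle array at 60 h (-0.67 and -0.75) or either 4OHT array at 36 h (-0.71 each), nor with the replicate block (adjusted p = 0.0508). Fads2 read 2835 and 2382 with vehicle and 2061 and 1621 with 4OHT, again without overlap (change -0.50, SE 0.17, adjusted p = 0.0522).

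After quantile normalization Acaca changed by -0.60 (adjusted p = 0.205), and 8 other genes rose at 60 h while 0 fell, where 29.8% of all genes were called. They were Hsd17b7, a sterol C3 ketoreductase (0.40, SE 0.10), Pmvk (0.33), Fasn (0.33), Srebf2, the SREBP that drives sterol genes (0.29, SE 0.07, adjusted p = 0.00454), Fdft1 (0.23), Cyp51 (0.22), Nsdhl (0.18) and Idi1, isopentenyl diphosphate isomerase (0.15). Of these, Fasn, Fdft1 and Nsdhl were also called higher with 4OHT in no-Cre cultures at 60 h. As deposited Srebf2 read 1893 and 1520 with vehicle and 1689 and 2261 with 4OHT, and was not called. On that scale a further Srebf2 probe set did not rise, at 2085 and 1694 with vehicle and 1497 and 1783 with 4OHT. The response at 60 h minus that at 36 h was called for Acaca alone as deposited (-1.36, adjusted p = 0.0235; 0.197% of all genes), and that call was lost without any 1 of 5 CreER arrays, with changes from -1.40 to -0.92. After quantile normalization limma called 0 of 28 (2.19% of all genes), with 7 higher and 4 lower at an unadjusted p under 0.05, beside 1422 of 7618 genes.

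**Figure D3:**
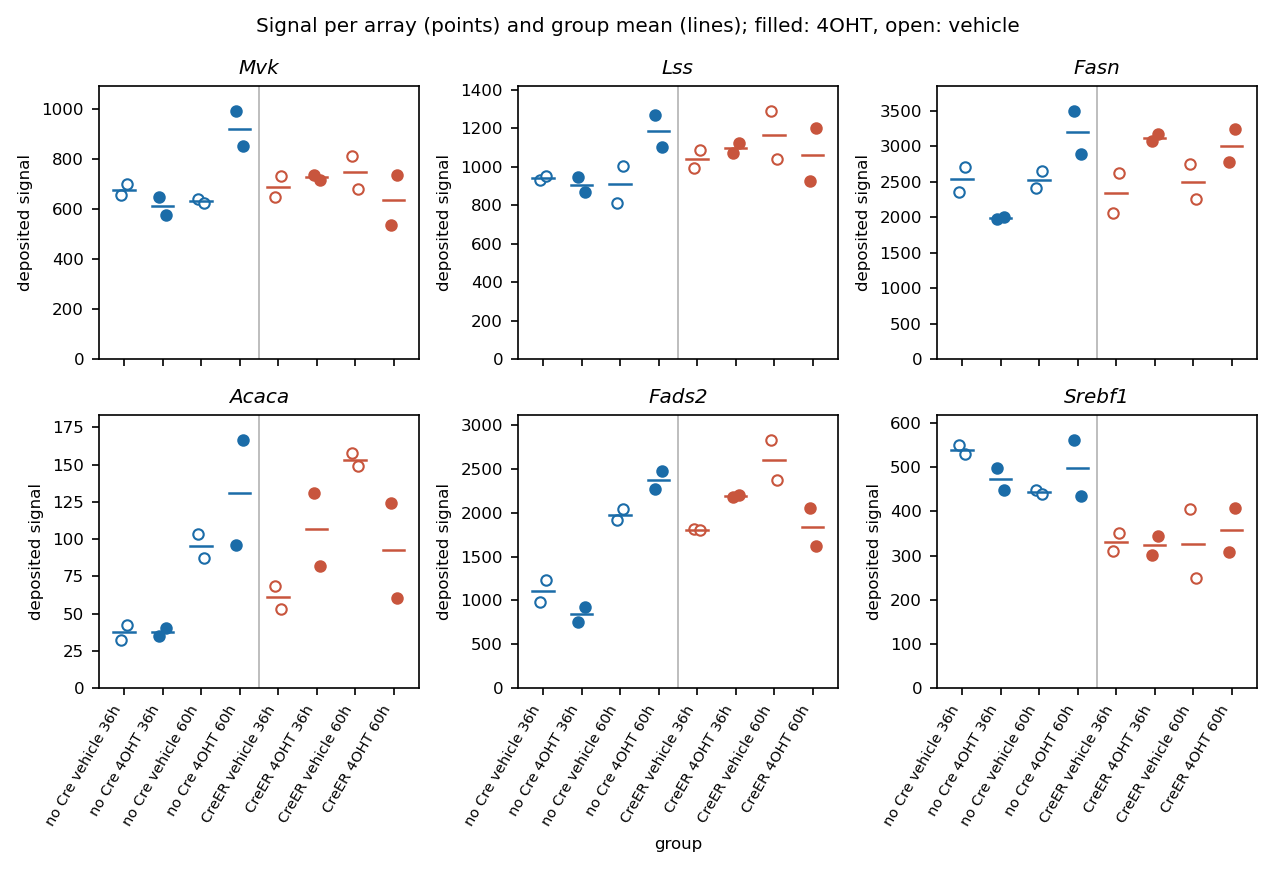
Deposited signal (vertical axis, arbitrary units from 0) of 6 genes on each array (points) with the mean of each group of 2 arrays (lines), no Cre in blue and CreER in red, vehicle open and 4OHT filled, by group (horizontal axis). Mvk and Lss are higher with 4OHT in the no-Cre 60 h group, Fasn is higher with 4OHT on all CreER arrays, Srebf1 is lower on every CreER array than on every no-Cre array, and Acaca and Fads2 are low in both no-Cre groups at 36 h.

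The response of CreER cultures minus that of no-Cre cultures, averaged over the times, asked whether the genotypes responded differently. As deposited, limma called 0 of 28, where 2.34% of all genes were called. At an unadjusted p under 0.05, 2 were higher, beside 853 of 7619 genes in either direction: Fasn differed by 0.35 (SE 0.16, adjusted p = 0.36) and Msmo1 by 0.30 (adjusted p = 0.382). Elovl6 came next (-0.26, adjusted p = 0.634). After quantile normalization 1 was higher and 6 were lower, 25% of the 28, where 19.2% of all genes were called. Fasn was the one higher (0.33, SE 0.07, adjusted p = 0.00432). That difference lay at 36 h, where its quantile-normalized signals went from 2223 and 2466 to 3222 and 3073 with 4OHT in CreER cultures. Without Cre, on the arrays of low actin ratio, they went from 2085 and 2361 to 1781 and 2048. At 60 h Fasn rose in both genotypes. Its signals went from 2564 and 2604 to 3319 and 3195 with CreER, and from 2633 and 2523 to 3222 and 3172 without Cre.

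The lower ones were Mvk (-0.26, adjusted p = 0.0346), Elovl6 (-0.25, adjusted p = 0.0139), Stard4 (-0.23, adjusted p = 0.0096), Lss (-0.18, adjusted p = 0.0441), Acly, which cleaves citrate to acetyl-CoA (-0.13, adjusted p = 0.0424), and Hmgcs1 (-0.10, adjusted p = 0.0398). Mvk and Lss were called in no-Cre cultures and not with CreER, where Mvk at 60 h read 811 and 681 with vehicle and 536 and 735 with 4OHT, which overlap. A further Mvk probe set, as deposited, was not lower with 4OHT in CreER cultures. It read 444 and 496 with vehicle against 481 and 562 with 4OHT at 36 h, and 495 and 408 against 466 and 550 at 60 h. Without Cre it read 422 and 536 against 433 and 403 at 36 h, and 481 and 567 against 801 and 580 at 60 h. Elovl6, Fasn and Stard4 were called with each of the 16 arrays left out in turn, and the count over the 28 ran from 3 to 7.

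CreER against no-Cre cultures under vehicle compared the genotypes without the drug. As deposited 2 of the 28 genes were higher and 3 lower with CreER, 17.9%, where 34.5% of all genes were called. Srebf1, the SREBP that drives fatty acid genes, read from 249 to 407, with a median of 328 and a mean of 335 ± 53.8 (SD, n = 8), over the CreER arrays of all treatments and times. Over the no-Cre arrays it read from 435 to 562, with a median of 474 and a mean of 489 ± 52.9 (SD, n = 8). These ranges did not overlap, and the change under vehicle was -0.57 (SE 0.13, adjusted p = 0.000151). After quantile normalization it was -0.39 (SE 0.08, adjusted p = 0.000586), and the ranges, 291 to 419.5 and 399 to 499.7, overlapped.

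Msmo1 read 3652 to 5278 on the 4 CreER vehicle arrays and 4969 to 6200 on the 4 no-Cre ones (change -0.33, SE 0.10, adjusted p = 0.00508). Hsd17b7 read 799 to 1030 and 849 to 1324 (change -0.35, SE 0.13, adjusted p = 0.0233). Both ranges overlapped, and leaving out 1 of 5 arrays for Hsd17b7 (changes from -0.37 to -0.21) or of 2 for Msmo1 (-0.25 and -0.20) ended the call. As deposited, Acaca (0.56) and Fads2 (0.55, SE 0.12, adjusted p = 6.86e-05) were higher. Acaca is given with no p, since its no-Cre vehicle signals at 36 h, 32.2 and 42.6, lay under the filter signal of 51.1. In the 60 h arrays alone, which leave out the no-Cre arrays of low actin ratio, none of these 5 genes was called as deposited, while 1328 of 7619 genes were. The changes there were 0.61 for Acaca (adjusted p = 0.0537) and -0.32 for Msmo1 (adjusted p = 0.107), about as large as over both times, and -0.46 for Srebf1 (adjusted p = 0.0741), 0.39 for Fads2 (adjusted p = 0.11) and -0.28 for Hsd17b7 (adjusted p = 0.343). In the 36 h arrays alone Fads2 (0.71, adjusted p = 0.000571) and Srebf1 (-0.68, adjusted p = 0.00286) were called, with 1865 of 7619 genes. With the actin ratio as a covariate Srebf1 differed by -0.36 (adjusted p = 0.149) as deposited and by -0.35 (adjusted p = 0.0224) after quantile normalization.

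After quantile normalization 11 genes were higher and 4 lower with CreER, 53.6% of the 28, where 55.2% of all genes were called, so the share was near the background. Lss differed by 0.41 (SE 0.04, adjusted p = 7.36e-07), Mvd by 0.38 (SE 0.07, adjusted p = 0.000284), Tm7sf2 by 0.37 (adjusted p = 0.00116) and Mvk by 0.29 (SE 0.06, adjusted p = 0.000432). In the 60 h arrays alone these 4 genes were among 6 called higher after quantile normalization, with Lss at 0.43 (adjusted p = 3e-05), and Srebf1 at -0.36 (adjusted p = 0.015) was among 3 called lower. These 9 of 28 stood beside 3368 of 7618 genes called, a larger share. Other probe sets of these genes were less clear under vehicle as deposited. That of Mvk read 408 to 496 with CreER and 422 to 567 without Cre, and that of Mvd 617 to 901.5 and 621 to 748. Of the other Lss probe sets, the brighter read 368 to 460 and 283 to 422. Those ranges overlapped, while the dimmer Lss probe set read 63.8 to 91.3 and 53.9 to 62.7, without overlap. The genotype contrast and the no-Cre response at 60 h share the no-Cre vehicle arrays. Cell markers also differed between the genotypes as deposited: 4 of 6 neural stem cell markers were called lower with CreER (median -0.36), 2 of 2 neuron markers were lower, and of 3 astrocyte markers 1 was higher and 2 lower (-2.04 to 1.09). The summed neural stem cell markers ran from 14610 to 19680 on the CreER arrays and from 16770 to 23190 on the no-Cre arrays, the summed neuron markers from 973.5 to 1755 and from 1558 to 2238, and the summed astrocyte markers from 435 to 982 and from 659.7 to 929. Their part in the lipid gene differences was not tested.

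Other probe sets of Hmgcs1 gave another picture of the genotypes. The probe set that stands for the gene read 8947 to 11500 over all arrays, near the highest signals on any array (11070 to 13290), and differed by 0.11 with CreER under vehicle as deposited (SE 0.09, adjusted p = 0.373). After quantile normalization it also differed by 0.11 and was called higher (SE 0.02, adjusted p = 0.00146), one of the 11 genes higher. The 3 dimmer probe sets read lower with CreER. The first read 2232 to 3004 on the CreER arrays and 3577 to 4898 on the no-Cre arrays (change under vehicle -0.67, SE 0.11, adjusted p = 2.84e-08). The second read 2312 to 3135 against 3578 to 4531 (change -0.53, SE 0.11, adjusted p = 2.15e-05), and the third 1469 to 2328 against 2803 to 4131 (change -0.95, SE 0.12, adjusted p = 1.22e-14).

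In each of the 3, all 8 CreER arrays lay below all 8 no-Cre arrays. After quantile normalization the changes were -0.58, -0.42 and -0.86, and with the actin ratio as covariate -0.47 (adjusted p = 0.00846), -0.37 (adjusted p = 0.0505) and -0.56 (adjusted p = 0.00177). After quantile normalization the probe sets of this gene were thus changed in opposite directions. Which transcript regions they read was not analysed here, and the cause was not tested.

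**Figure D4:**
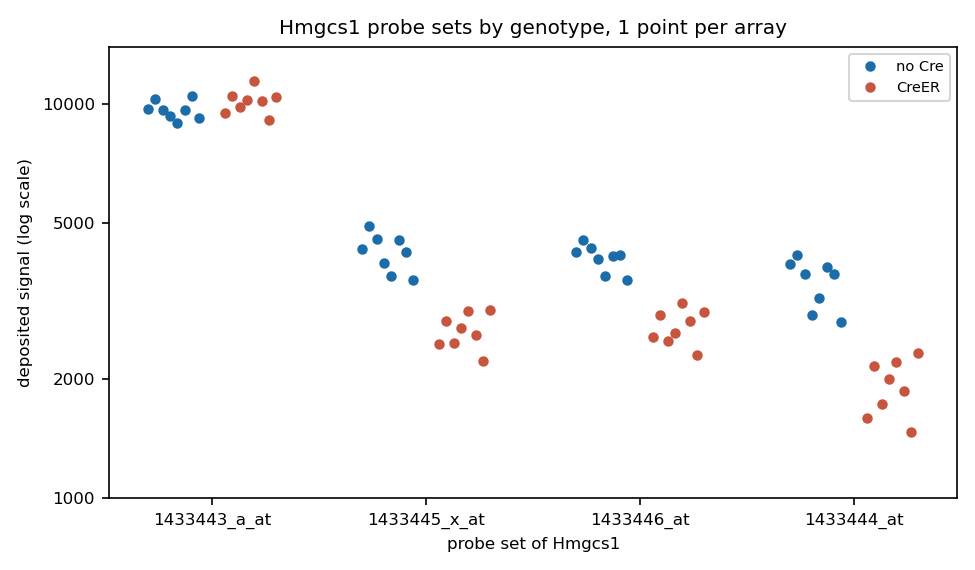
Deposited signal on a log axis (vertical) of the 4 Hmgcs1 probe sets (horizontal axis) on each array, 8 no-Cre arrays in blue and 8 CreER arrays in red. The brightest probe set lies between 8947 and 11500 in both genotypes, and in the other 3 the CreER arrays lie below all no-Cre arrays.

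Time in culture was compared as 60 h against 36 h, averaged over the treatments. Without Cre, 2 of 28 genes (7.14%) were higher at 60 h as deposited, where 4.10% of all genes were called. Acaca read 32.2 to 42.6 at 36 h (mean 37.5 ± 4.76, SD, n = 4) and 87.2 to 167 at 60 h (mean 113 ± 36.1, SD, n = 4), without overlap. All 4 of the 36 h signals lay under 51.1, the signal below which genes were left out, and Acaca passed that filter through its other groups. The fitted change of 1.24 is therefore given with no p, and its size is uncertain. Fads2 read 755 to 1234 at 36 h and 1917 to 2481 at 60 h, a change of 1.16 (SE 0.12, adjusted p = 3.68e-18). The times did not overlap here either. In a further Fads2 probe set they did overlap, at 908 to 1440 at 36 h and 1255 to 1692 at 60 h without Cre. With CreER that probe set read 1241 to 1621 and 1217 to 1763. With the actin 5′ to 3′ ratio as a covariate the changes were 0.14 for Acaca and 0.57 for Fads2, and neither was called.

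After quantile normalization 14 of 28 genes (50%) were higher at 60 h without Cre, where 27.1% of all genes were called, among them Fasn (0.48, SE 0.05, adjusted p = 2.7e-05), Mvk (0.35, SE 0.06, adjusted p = 0.000622) and Lss (0.28, SE 0.04, adjusted p = 0.000263). With the actin ratio added the changes of these 3 were 0.27, 0.39 and 0.26, and none passed (adjusted p = 0.319 to 0.339). With CreER, limma called 0 of 28 as deposited (5.28% of all genes), with 1 higher and 1 lower at an unadjusted p under 0.05, beside 1137 of 7619 genes. It called 4 higher and 1 lower after quantile normalization (22.8% of all genes): Srebf2 (0.18), Stard4 (0.17), Scd1 (0.12) and Nsdhl (0.11), with Fdps, farnesyl diphosphate synthase, at -0.07. As deposited, where Srebf2 was not called, its further probe set did not rise, at 1776 to 2195 at 36 h and 1497 to 2085 at 60 h with CreER. The time effect with CreER minus that without differed for 2 of 28 as deposited (2.14% of all genes). They were Fads2 (-1.03, adjusted p = 1.3e-06) and Acaca (-0.77), given with no p since its no-Cre signals at 36 h lay under the filter signal. The Acaca call was lost without any 1 of 10 arrays (changes from -0.83 to -0.55). With the actin ratio as covariate neither was called: Fads2 differed by -0.56 (adjusted p = 0.412), and Acaca turned to 0.10, or to 0.33 with quantile normalization as well. After quantile normalization it differed for 5 (17.1% of all genes), Fads2, Fasn, Mvk, Ebp and Fdps, all lower with CreER.

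The desaturase Scd2, which makes monounsaturated fatty acids, shows how far the probe sets of 1 gene parted on the no-Cre arrays at 36 h. The probe set that stands for it read 6207 to 7892 on all 16 arrays. The third brightest of its probe sets read 323 and 1112 with vehicle and 139 and 446 with 4OHT in the no-Cre cultures at 36 h, and 1882 to 4110 on the other 12 arrays. Its change from 36 h to 60 h without Cre was 2.98 (SE 0.12, adjusted p = 1.64e-124 over probe sets), and 0.83 (adjusted p = 0.253) with the actin ratio as covariate. The arrays within each of these 36 h groups parted by far more than the SE of 0.12, so the p of 1.64e-124 overstates the precision.

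The ratio of the third probe set to the first was 0.0199 to 0.145 on the 4 no-Cre arrays at 36 h and 0.261 to 0.558 on the others. Over those other 12 arrays it rose with the actin 5′ to 3′ ratio, with Pearson's r of 0.907 (permutation p = 8e-05, adjusted over 4 relations 0.00032) and Spearman's rho of 0.888 (permutation p = 0.00046, adjusted 0.00184). Without the 2 arrays farthest from the median actin ratio, r was 0.817. The like ratio of 2 Fads2 probe sets gave r of 0.864 (permutation p = 0.00056, adjusted 0.00112) and rho of 0.818 (permutation p = 0.0018, adjusted 0.0036), with r of 0.679 without the 2 farthest. In Scd1 r was 0.267 (permutation p = 0.398) and rho 0.189 (permutation p = 0.558), and in Sc5d r was 0.375 (permutation p = 0.226) and rho 0.385 (permutation p = 0.216). These 4 genes were chosen after their values were seen, and the 12 arrays span both genotypes and treatments.

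**Figure D5:**
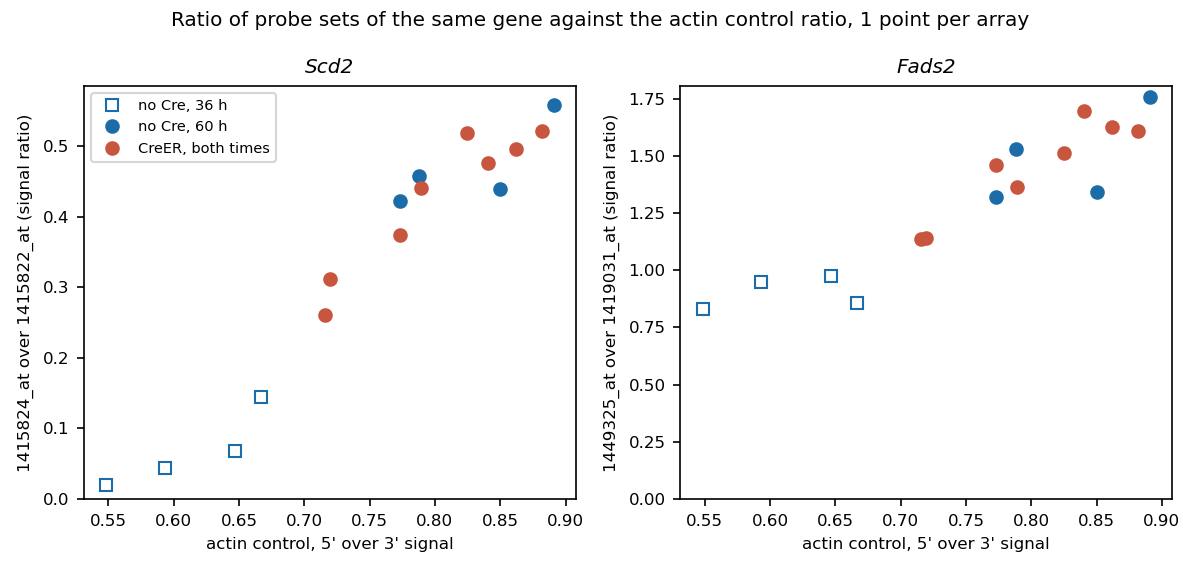
Ratio of the signals of 2 probe sets of Scd2 (left) and of Fads2 (right) on the vertical axis against the ratio of the 5′ to the 3′ beta-actin control probe sets on the horizontal axis, 1 point per array, with open squares for the 4 no-Cre arrays at 36 h. The squares have both the lowest actin ratios, up to 0.667, and the lowest probe set ratios, up to 0.145 for Scd2.

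Other lipid genes were taken from 3 wider lists. After quantile normalization, 4 of 19 other fatty acid genes rose and 1 fell with 4OHT in no-Cre cultures at 60 h, where 7.35% of all genes were called: Acss2, which makes acetyl-CoA from acetate, changed by 0.39 (adjusted p = 0.0015), Thrsp, a lipogenic regulator, by 0.30 (adjusted p = 0.00277) and Fabp7, a fatty acid binding protein of neural stem cells, by -0.27 (adjusted p = 0.0155). Of 10 other sterol genes 1 rose, the lysosomal cholesterol carrier Npc2 (0.26, adjusted p = 0.00671), and of 18 fatty acid oxidation genes 2 rose, shares near that of all genes. As deposited limma called 0 in each list, with 1 gene in each at an unadjusted p under 0.05, beside 360 of all 7619 genes.

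In CreER cultures, averaged over the times, 11 of 18 fatty acid oxidation genes rose with 4OHT after quantile normalization and 0 fell, where 38.8% of all genes were called. Acadvl, which starts the oxidation of long chains, changed by 0.36 (adjusted p = 3.11e-06) and Cpt1a, which admits them to the mitochondrion, by 0.33 (adjusted p = 0.000152). As deposited limma called 0 of the 18, with 2 at an unadjusted p under 0.05, beside 1937 of all 7619 genes. Among other sterol genes Lrp1, a lipoprotein receptor, rose on both scales (0.44 as deposited, adjusted p = 0.0118; 0.52 after quantile normalization, adjusted p = 8.82e-07). Under vehicle, Thrsp was higher with CreER by 1.16 as deposited (adjusted p = 3.64e-18) and 1.31 after quantile normalization (adjusted p = 7.01e-14), one of 8 of 19 other fatty acid genes called higher as deposited, with 2 lower, where 34.5% of all genes were called.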

How the data were processed

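Biotin-labelled total RNA from mouse adult neural stem cells was read on Affymetrix arrays, 2 for each of 8 groups of genotype, treatment and time. The deposited table holds intensity values, linear signals that the authors made with MAS5 per the submitters' processing notes, whose scaling is not given in the sources used here. Of 22626 non-control probe sets, 20380 had 1 gene symbol in the platform annotation, 691 several and 1555 none. The probe set with the highest mean stood for a gene, and genes under the 40th percentile of mean log2 signal (a signal of 51.1) were left out. Tests ran on log2(signal + 16), which understates changes of dim genes, in limma 3.58.1 under R 4.3.3, with a mean for each group, a mean-variance trend and Benjamini-Hochberg adjustment over 7619 genes, and a gene was called at an adjusted p under 0.05. Quantile normalization, median scaling, other pseudocounts, filters and covariates were alternatives, and the code was tested on simulated data. All 28 genes with a probe set were open to naming, and those called on either scale or with the smallest p were named. The genes and lists were chosen with earlier results of these data known. Same-numbered arrays deviated together with correlations from -0.12 to 0.31, so the numbers were not taken as pairs.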

Additional observations from a re-analysis of the deposited data

Results flagged for a closer look

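Several members differed between genotypes or times by a test of the difference itself, on the log2 scale and as deposited. Only Fads2 and Acaca did so by the probe set that stands for the gene. For Scd1, Scd2, Sc5d and Srebf2 it was a dimmer probe set, and the one that stands for the gene was not called. Nor was the further Fads2 probe set. The effect of time with CreER minus that without was -1.03 for Fads2 (adjusted p = 1.3e-06), -2.75 for the third Scd2 probe set (adjusted p = 1.53e-51), -0.90 for the second Scd1 probe set (adjusted p = 0.00018), -0.71 for the second Sc5d probe set (adjusted p = 0.016) and -0.54 for a further Srebf2 probe set (adjusted p = 0.0485). For Acaca it was -0.77, given with no p since its no-Cre signals at 36 h lay under the filter signal. The response of CreER cultures to 4OHT at 60 h minus that at 36 h was -1.36 for Acaca (adjusted p = 0.0235) and -1.25 for the third Scd2 probe set (adjusted p = 0.000158). The response with CreER minus that without was 0.59 for the same Scd2 probe set (adjusted p = 0.0438). With the actin 5′ to 3′ ratio as covariate, the differences of time effects were 0.10 for Acaca, -0.56 for Fads2, -0.62 for Scd1, -0.11 for Sc5d and -0.61 for Srebf2, none of them called, and -1.04 for Scd2 (adjusted p = 0.00735). The differences between 60 h and 36 h were then -0.64 for Acaca and 0.16 for Scd2, neither called, and the difference of responses for Scd2 was 0.90 (adjusted p = 5.54e-06). In the no-Cre cultures at 36 h this Scd2 probe set parted widely between replicates, at 323 and 1112 with vehicle and 139 and 446 with 4OHT. Its p-values for comparisons that use those arrays therefore overstate the precision.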

How the results depend on the processing

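Counts of the 28 genes called depended mostly on the scaling between arrays. Under quantile normalization, median scaling, quantile normalization with the actin ratio, and quantile normalization of the arrays compared, in that order, 10, 8, 8 and 10 were called for 4OHT without Cre at 60 h, 7, 5, 8 and 9 with CreER over both times, 5, 3, 4 and 6 at 36 h, 8, 8, 6 and 7 at 60 h, 7, 5, 6 and 7 for the difference of responses, 15, 15, 10 and 14 for genotype, 14, 8, 0 and 15 for time without Cre, and 5, 1, 3 and 4 for time with CreER. For 4OHT without Cre over both times, quantile normalization, the same with the actin ratio, and the same on the arrays compared gave 2, 3 and 1; these 3 gave 0 each for the CreER response at 60 h minus 36 h and 5, 0 and 5 for the difference of time effects. For signals as deposited, no filter gave 0 with CreER over both times and at 60 h, 0 for 60 h minus 36 h, 2 for genotype and 1 for the difference of time effects. The actin ratio alone gave 3 with CreER over both times and 0 for CreER at 60 h, 60 h minus 36 h, genotype, time without Cre and the difference of time effects. No mean-variance trend gave 0 with CreER over both times, 1 at 36 h and 1 for time with CreER; only the arrays compared gave 0, 1 and 0 with CreER across the times, at 36 h and at 60 h. A pseudocount of 1 gave 0 for CreER at 60 h, and 64 gave 1 for time with CreER and 1 for the difference of time effects; the mean of a gene's probe sets gave 5 and 1 for time without and with CreER. Genotype at 60 h alone gave 0 as deposited and 9 after quantile normalization. The replicate block gave 0 for CreER at 60 h, where Acaca had an adjusted p of 0.0508. It gave 1 for the difference of time effects, where Acaca was not called. The pairing was not borne out. Leaving out each array gave 0 to 2 with CreER over both times and at 60 h, 0 to 1 for 60 h minus 36 h, 3 to 7 for genotype, 2 to 3 for time without Cre, 0 to 2 for time with CreER and 1 to 2 for the difference of time effects. After quantile normalization it gave 5 to 11 without Cre at 60 h, 5 to 10 with CreER, 3 to 7 for the difference of responses and 10 to 15 for genotype. Acaca turned sign with quantile normalization and the actin ratio for time without Cre (-0.12), and for the difference of time effects with the actin ratio (0.10) and with both (0.33). Causes were not tested. With 2 arrays per group, precision is limited by their number, and Acaca lies near the filter.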
